A study of Rattus norvegicus with 20 samples.

Results

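The promoters of 5 genes of the defence against oxidative and metal stress were followed for binding of NF-kB p65 in rat liver: Sod2, Nos2, Mt2A, Mgst1 and Gstm1. The members were chosen by name, as the rows of the authors' peak lists under these names or under Mt1a (now Mt1) and the array probes within 5 kb of the listed transcription starts. Mt1, the other metallothionein gene, lies beside Mt2A in a single tiled region, so the genes gave 5 promoter regions of the 14540 tested on the array. Signal was the log2 ratio of p65-precipitated to reference DNA, averaged in each region over the 500 bp stretch (the window) whose mean over all arrays was highest, with at least 4 probes.

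The rats were male wild-type Sprague Dawley animals of 8 to 10 weeks, fed for 5 weeks a liquid diet with 36% of calories from ethanol, or pair-fed a diet with carbohydrate in its place. All underwent a 70% partial hepatectomy. The 0h arrays came from the left lateral and median lobes taken out at surgery, and the 1h and 6h arrays from the lobes left behind (right median, right lateral and caudate), so time and lobe cannot be told apart. There were 20 arrays: 3 of each diet at 0h, as many at 1h, and 4 of each diet at 6h. The series asks whether long ethanol feeding changes which promoters NF-kB occupies as the liver regrows. The tissue was whole liver, in which more cells with bound p65 and more binding per cell cannot be told apart. The arrays carry no expression values, so the labelled tissue was not checked against markers.

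NF-kB is held in the cytoplasm by inhibitor proteins and enters the nucleus when cytokines, endotoxin or oxidants lead to the inhibitors' breakdown; p65 is its main activating subunit. In liver it is switched on soon after partial hepatectomy, as Kupffer cells release cytokines that prime hepatocytes to divide. Several enzymes that remove or produce reactive oxygen and nitrogen species are textbook NF-kB targets, with Sod2 and Nos2 the best known, while metallothioneins answer mainly to zinc, copper, glucocorticoids and cytokines. Chronic ethanol raises oxidant production in hepatocytes, largely through its oxidation by cytochrome P450 2E1.

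The sequences below are shown because the p65 signal changed next to the starts of these 3 genes. They run from 250 bases before to 50 after the start in RefSeq (build GRCr8), 5′ to 3′ on the gene's strand, and the build of the arrays is not given in the sources used here. Capitals mark the core of the metal response element (TGCACNC or TGCGCNC), to which the zinc-sensing factor MTF-1 binds, and the core of the antioxidant response element (TGACNNNGC), to which Nrf2 binds. Both strands were searched, and no match of one core overlapped a match of the other.
Mt1: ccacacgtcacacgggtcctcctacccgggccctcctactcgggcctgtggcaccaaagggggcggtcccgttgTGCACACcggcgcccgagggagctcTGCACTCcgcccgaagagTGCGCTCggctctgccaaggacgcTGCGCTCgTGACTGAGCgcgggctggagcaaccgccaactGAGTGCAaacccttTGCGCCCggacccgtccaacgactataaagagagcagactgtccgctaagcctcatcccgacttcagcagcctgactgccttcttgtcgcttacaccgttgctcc
Mt2A: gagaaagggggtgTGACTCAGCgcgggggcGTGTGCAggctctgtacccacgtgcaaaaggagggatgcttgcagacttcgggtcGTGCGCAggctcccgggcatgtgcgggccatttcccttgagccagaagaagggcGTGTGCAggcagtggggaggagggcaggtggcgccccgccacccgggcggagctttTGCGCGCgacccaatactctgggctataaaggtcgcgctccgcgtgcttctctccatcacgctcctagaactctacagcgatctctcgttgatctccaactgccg
Gstm1: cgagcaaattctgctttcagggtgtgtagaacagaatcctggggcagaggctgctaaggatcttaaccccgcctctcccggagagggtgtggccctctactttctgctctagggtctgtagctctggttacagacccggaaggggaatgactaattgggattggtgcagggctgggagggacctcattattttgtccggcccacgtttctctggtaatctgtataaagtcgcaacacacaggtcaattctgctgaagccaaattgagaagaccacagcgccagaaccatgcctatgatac
These lie at chr19:10832926-10833225 (Mt1), chr19:10838659-10838958 (Mt2A) and chr2:198343334-198343633 (Gstm1), all on the minus strand. The Mt1 sequence holds 6 matches of the metal response core, and 0.0388% of 33469 promoters of that length hold 6 or more. Mt2A holds 4, as 0.439% of promoters do or exceed. The antioxidant response core matched once in Mt1 and once in Mt2A, and 12.1% of promoters hold a match. Gstm1 held neither core and has no capitals. The kB consensus, a motif of 10 letters searched on both strands and found in 7.51% of promoters, had no match in these 3 sequences or in those of Sod2 and Mgst1. In the Sod2 sequence the antioxidant response core matched once, 35 to 27 bases before the start. In that of Mgst1 the metal response core matched once, after the start. A match, or its absence, describes letters in the searched sequence only. The windows of p65 signal lay mostly or wholly outside it. By the listed starts they lay 170 to 646 bp after that of Mt1 and 24 to 444 bp after that of Gstm1. Those of Sod2 and Mgst1 lay 2517 to 2102 and 3134 to 2681 bp upstream. Whether these windows hold a kB match was not tested.

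Before the values, the layout of the arrays matters. Identifiers that came with the arrays placed them in 4 runs, on 11 slides. Run 1 held 5 of the 6 arrays of 0h and no other time. Run 2 was a single slide with ethanol 0h replicate 2, ethanol 1h replicate 1 and carbohydrate 1h replicate 1. Run 3 held 11 of the 14 later arrays, and run 4 held carbohydrate 6h replicate 1. The median absolute deviation of the probe values ranged from 0.156 to 0.364 log2 between arrays, with the highest on ethanol 0h replicate 2. Peaks listed per array ranged from 2874 to 9387. Comparisons of 6h with 1h could be made inside run 3, while in the carbohydrate diet no run held both a 0h and a later array. A fit with run as a term therefore links 0h to the later times only through ethanol 0h replicate 2, in both diets. Differences from 0h in such a fit rest on that array and cannot separate run from time. The number of arrays limits the precision: the median standard error of a difference was 0.142 for 3 arrays against 3 and 0.123 for 4 against 4. By the array identifiers no group held an animal more than once, and the sample titles name none.

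Across the windows of the 5 promoters, the metallothionein region and Gstm1 carried most p65 signal at 1h, and Sod2 carried most at 6h. Mgst1 carried less at 6h than at 0h or 1h in the carbohydrate diet. Nos2 was higher at 1h than at 0h or 6h in the carbohydrate diet. The test was limma over all 14540 promoters in a single fit of the 6 groups, with Benjamini-Hochberg adjustment and a threshold of 0.05. At 1h against 0h, 1 of the 5 promoters rose in the ethanol diet and 3 rose in the carbohydrate diet; 0.248% and 8.64% of all promoters rose in these comparisons. At 6h against 0h, none of the 5 passed in the ethanol diet, where 0.997% of all promoters were called in either direction. The carbohydrate diet had 1 that rose and 1 that fell, against 18.6% rising and 2.02% falling over all promoters. At 6h against 1h, 2 of the 5 fell in the ethanol diet, where 16.1% of all promoters fell. With carbohydrate 1 rose and 4 fell, against 17.1% rising and 6.91% falling. The median difference over all promoters was 0.15 for 6h against 0h in the carbohydrate diet and lay between −0.11 and 0.07 in the other time and diet comparisons.

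**Figure D1:**
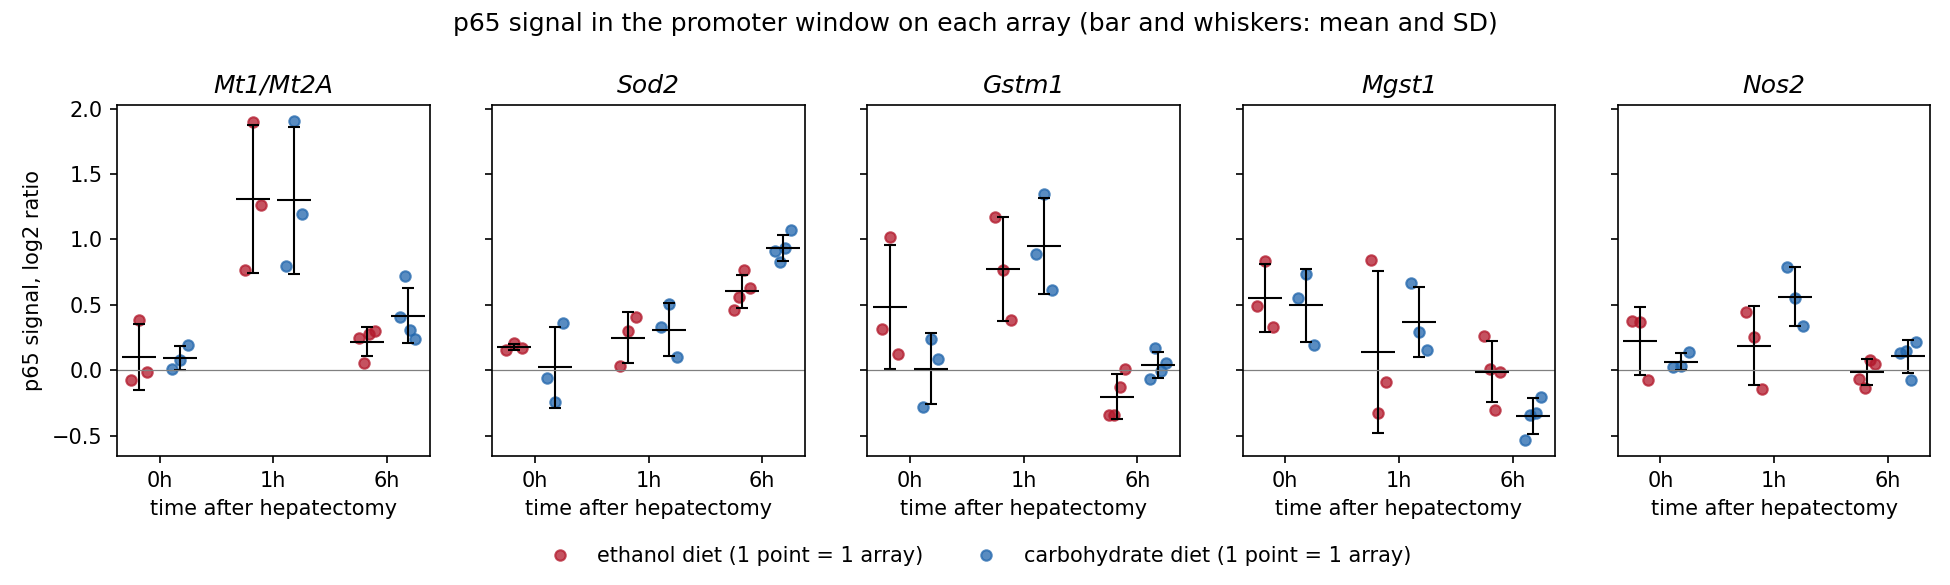
p65 signal (log2 ratio, vertical axis) of each of the 20 arrays in the promoter window of the 5 regions, by hours after hepatectomy, with ethanol (red) left of carbohydrate (blue) at each time; black bars and whiskers give mean and SD. The 6 metallothionein points at 1h lie between 0.77 and 1.90, above every 0h and 6h point, and the Sod2 points of carbohydrate 6h lie between 0.83 and 1.07.

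**Figure D2:**
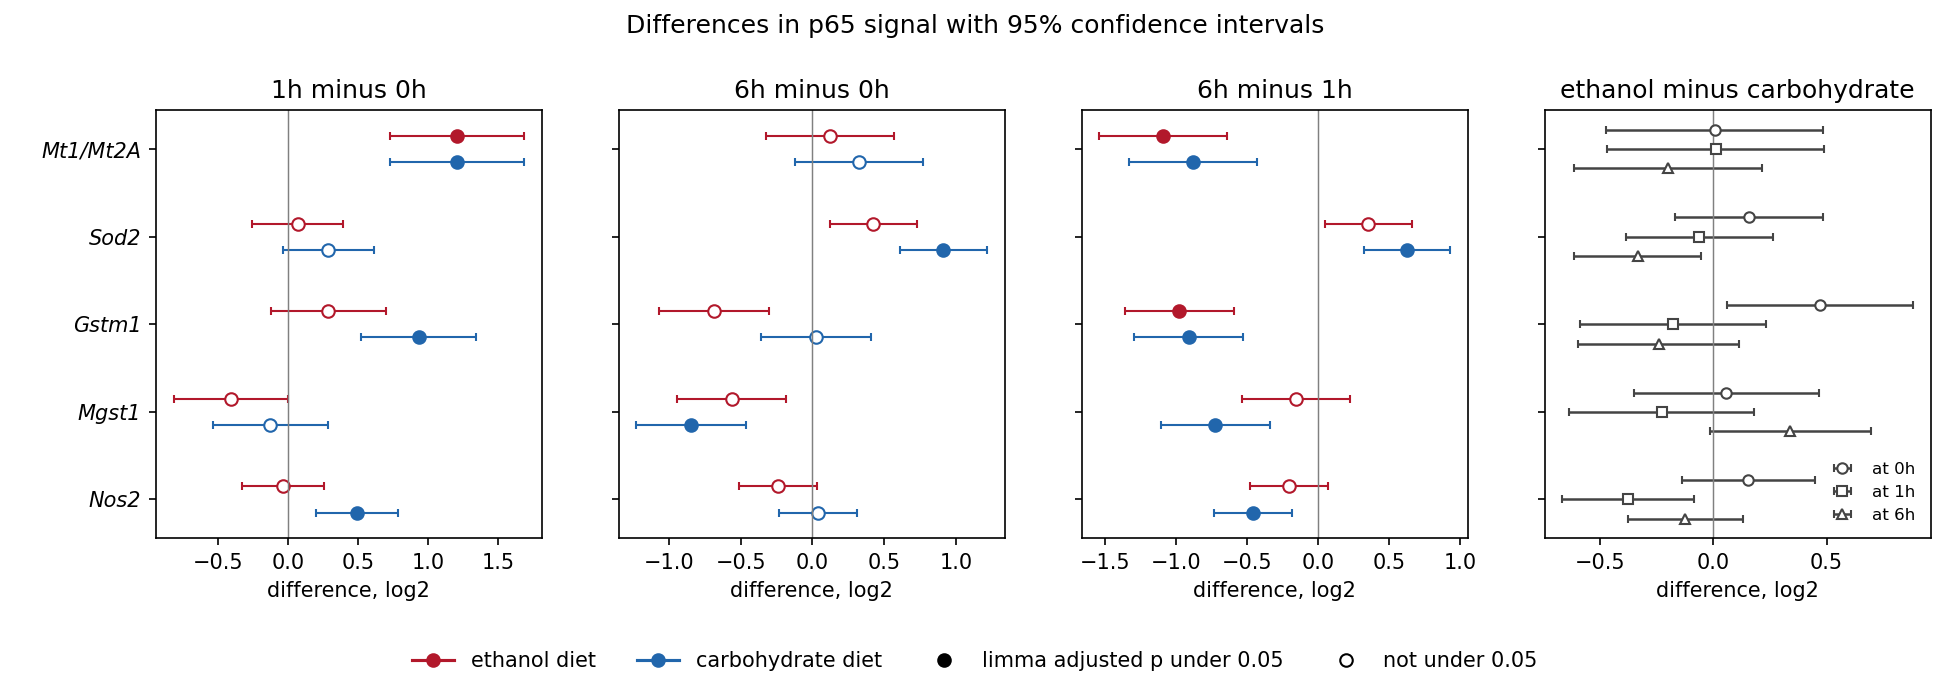
Differences in p65 signal (log2, horizontal axis) with 95% confidence intervals for the 5 promoters: later minus earlier time in the ethanol (red) and carbohydrate (blue) diets, and ethanol minus carbohydrate at each time (grey). Filled points have a limma adjusted p under 0.05; all 5 carbohydrate points are filled for 6h minus 1h, and no diet point is.

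Metallothioneins are small cysteine-rich proteins that bind zinc, copper and cadmium and take up oxidants, and their liver transcripts are known to rise after injury. The tiled region of Mt1 and Mt2A ran for 11247 bp with 104 probes, and its window lay at chr19:11262001-11262477 in the files' coordinates, 170 to 646 bp inside the Mt1 transcript from its start. In ethanol livers the window signal was −0.08, 0.39 and −0.01 at 0h, 0.77, 1.90 and 1.26 at 1h, and 0.25, 0.05, 0.28 and 0.30 at 6h. In carbohydrate livers it was 0.01, 0.08 and 0.19 at 0h, 0.80, 1.90 and 1.19 at 1h, and 0.41, 0.72, 0.31 and 0.24 at 6h. In both diets every 1h array was above every 0h and every 6h array. Over all promoters, 1h lay wholly above 0h at 6.34% in the ethanol and 21.4% in the carbohydrate diet. Likewise 6h lay wholly below 1h at 19.4% and 12%.

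In the ethanol diet the metallothionein window averaged 1.31 ± 0.57 at 1h and 0.10 ± 0.25 at 0h (SD, n = 3 each), a rise of 1.21 ± 0.24 (SE; limma adjusted p = 0.0204). Carbohydrate livers averaged 1.30 ± 0.56 at 1h and 0.09 ± 0.09 at 0h, and the rise was also 1.21 ± 0.24 (limma adjusted p = 0.00454). These were the third largest rise of 14540 promoters in the ethanol diet and the fifth largest in the carbohydrate diet. At 6h against 1h the signal fell by 1.09 ± 0.22 in the ethanol diet (limma adjusted p = 0.00134) and by 0.88 ± 0.22 in the carbohydrate diet (limma adjusted p = 0.00528). The fall in the carbohydrate diet was 0.58, with a limma adjusted p of 0.0581, without carbohydrate 1h replicate 2. Inside run 3 the falls were 1.36 (limma adjusted p = 8.57e-06) and 1.13 (limma adjusted p = 0.000104). At 6h against 0h the difference was 0.12 in ethanol and 0.33 in carbohydrate livers (limma adjusted p = 0.788 and 0.294). A run term gave −0.95 and −0.88 instead (limma adjusted p = 0.0789 and 0.242). Both values link 0h to 6h only through ethanol 0h replicate 2, the single 0h array outside run 1.

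The rise at 1h changed with how runs were treated. With run as a term it was 0.40 in the ethanol diet and 0.25 in the carbohydrate diet, and neither passed (limma adjusted p = 0.998 and 0.987). No run held both 0h and 1h carbohydrate arrays, so the carbohydrate value too hangs on ethanol 0h replicate 2. On run 2, where an animal gave both an ethanol 0h and an ethanol 1h array on the same slide, the signal was 0.77 at 1h and 0.39 at 0h. The ethanol value with a run term draws on this same pair, so they are not separate observations. In the ethanol diet the rise also missed the threshold without ethanol 0h replicate 1 (limma adjusted p = 0.105) or 3 (0.146), without ethanol 1h replicate 2 (0.117) or 3 (0.0876), and in a fit of the arrays compared alone (0.391). Without ethanol 0h replicate 2, the array of widest spread, it was 1.35 (limma adjusted p = 0.00133). How much of the rise goes with the run was not tested further.

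No difference between the diets passed at this region at any time. The window difference at 1h, ethanol minus carbohydrate, was 0.01 with a 95% interval from −0.47 to 0.49. The 3 pairs of 1h arrays that shared a slide differed by −0.03, −0.005 and 0.07. At 0h the difference was 0.01 (limma adjusted p = 0.997). At 6h it was −0.20, with a 95% interval from −0.61 to 0.22 (limma adjusted p = 0.686). Within 500 bp of the Mt1 start the 6h means were −0.01 in ethanol and 0.21 in carbohydrate livers, a difference of −0.21 that did not pass.

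**Figure D3:**
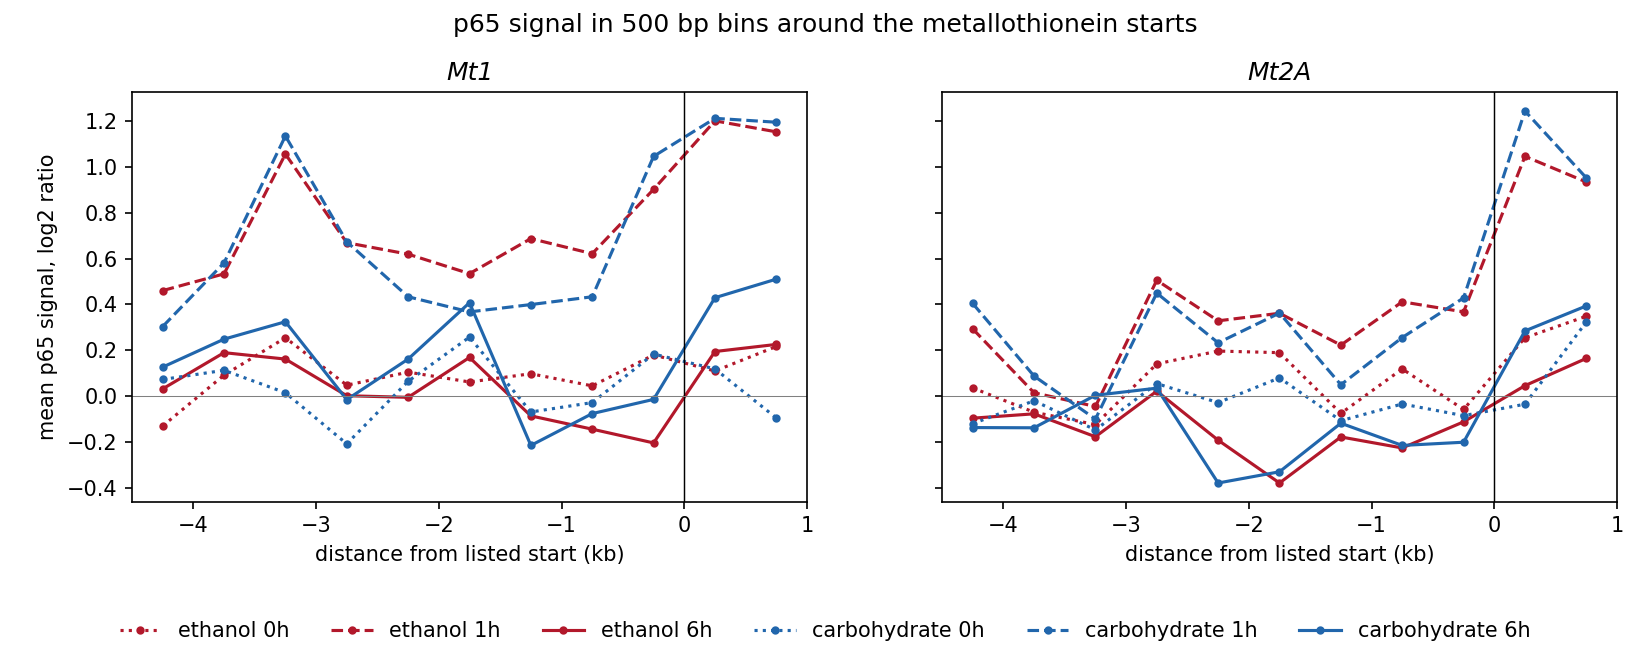
Mean p65 signal (log2, vertical axis) of each group in 500 bp bins, by distance from the listed start (kb, horizontal axis; negative is upstream), around Mt1 (left) and Mt2A (right). Dashed 1h lines lie above dotted 0h and solid 6h lines over most of both panels, with values of 1.20 (ethanol) and 1.21 (carbohydrate) just after the Mt1 start and 1.05 and 1.24 just after the Mt2A start.

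Around both starts the signal was tested again in bins of 500 bp, an analysis added after seeing the data. Of 11 bins around Mt1, 6 rose at 1h against 0h in the carbohydrate diet, and 5 of 11 around Mt2A; 4.12% of 149791 bins on the array rose. At 6h against 1h, 8 of 11 bins fell in the ethanol diet at each gene, against 7.26% of all bins, and 7 (Mt1) and 8 (Mt2A) fell in the carbohydrate diet, against 7.07%. In the ethanol diet none of these bins passed for 1h against 0h, where 0.002% of all bins rose. Maxima at 1h lay in the first 500 bp after each start and 3500 to 3001 bp upstream of Mt1. The upstream bin averaged 1.06 in ethanol and 1.14 in carbohydrate livers at 1h, against 0.25 and 0.01 at 0h.

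At the start of Mt2A itself, within 500 bp on either side, the 1h arrays gave 0.64, 1.02 and 0.46 in ethanol livers and 0.91, 0.97 and 0.63 in carbohydrate livers. The 0h arrays gave −0.05, 0.59 and −0.25 in ethanol livers and −0.09, 0.06 and −0.14 in carbohydrate livers. The 1h arrays were above all 0h arrays in carbohydrate livers, and in ethanol livers ethanol 0h replicate 2 overlapped them. The rise was 0.61 in the ethanol diet (limma adjusted p = 0.0904) and 0.90 in the carbohydrate diet (limma adjusted p = 0.00412), where 0.13% and 5.12% of 14596 starts rose. At 6h against 1h the Mt2A start fell by 0.74 and 0.80 in these diets (limma adjusted p = 0.00102 and 0.000763), among 16.5% and 10.8% of starts.

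In the authors' peak lists, peaks assigned to Mt1 appeared on 12 of 20 arrays and peaks assigned to Mt2A on 8. All 3 ethanol 1h and all 3 carbohydrate 1h arrays had peaks at both genes, where 15.7% and 11.5% of 14356 listed genes had a peak on every array of those groups. No ethanol 6h array had one at either gene, and all 4 carbohydrate 6h arrays had one at Mt1. By the authors' score, the Mt1 peak just inside the gene ranked 1 of 5358 peaks on carbohydrate 1h replicate 2, 2 of 6052 on replicate 3 and 2 of 8435 on ethanol 1h replicate 2. It ranked 108 of 9387 on ethanol 1h replicate 3. On the run 2 arrays it was at rank 553 of 4881 on carbohydrate 1h replicate 1 and 532 of 5916 on ethanol 1h replicate 1.

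**Figure D4:**
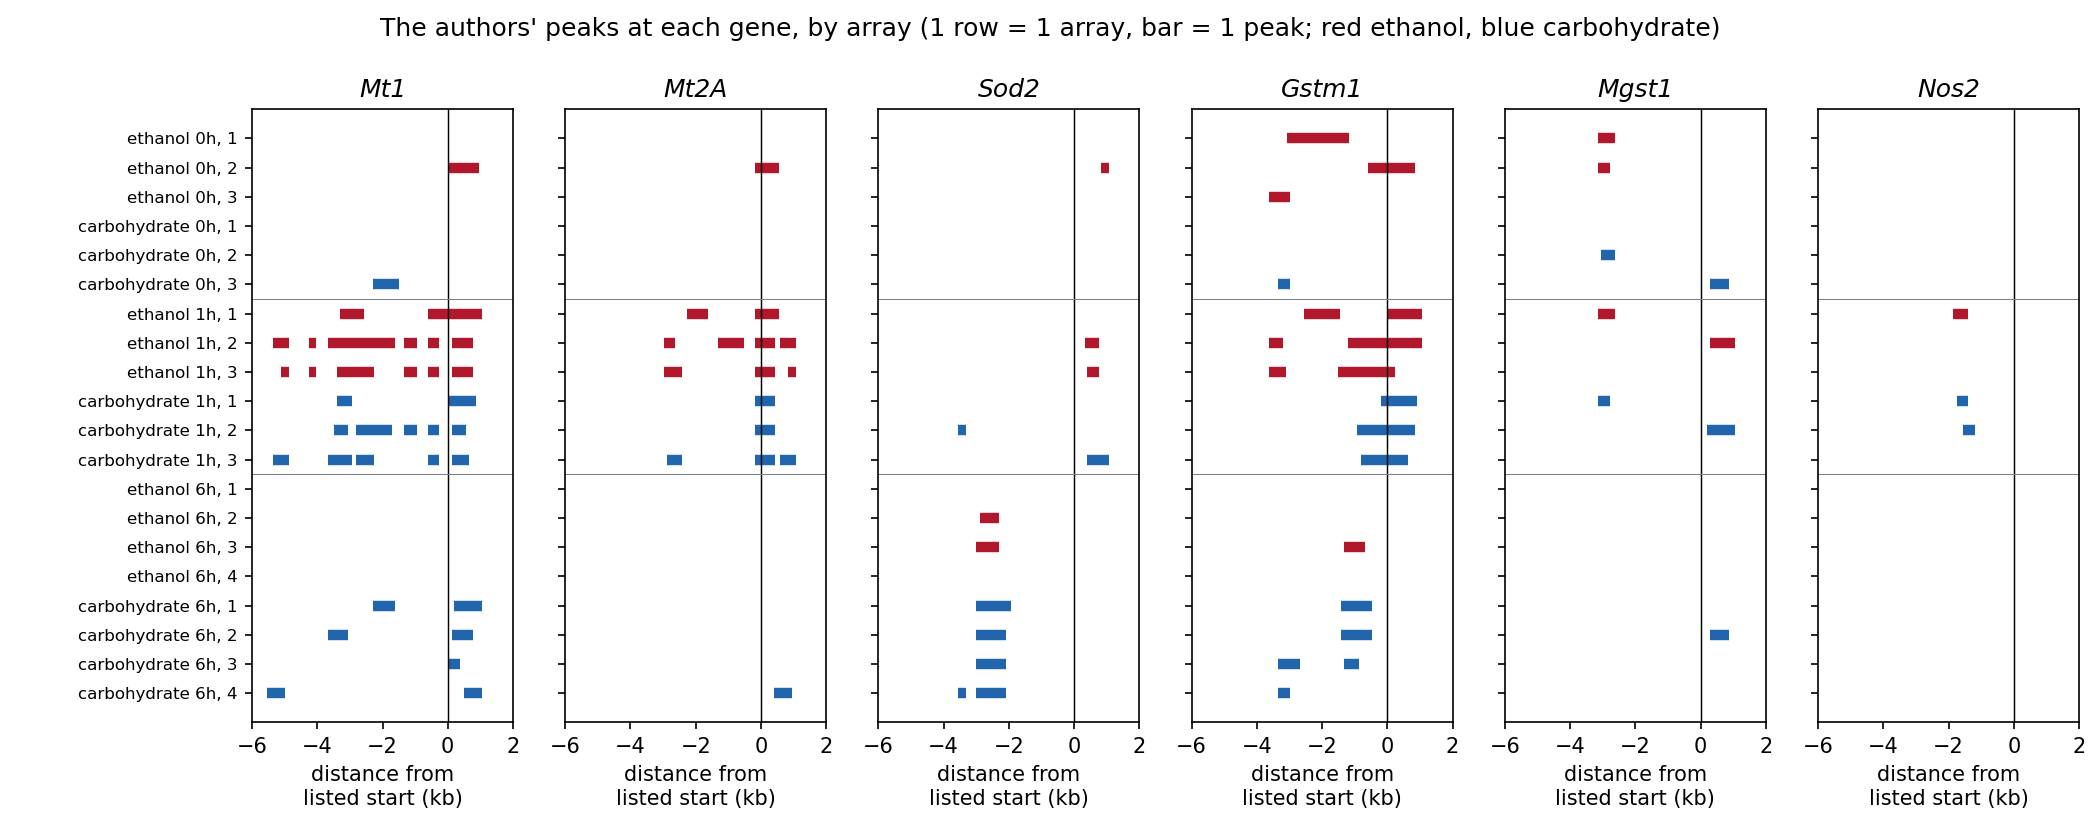
Position of each of the authors' peaks at the 6 genes by distance from the listed start (kb, horizontal axis; negative is upstream), with a row for each of the 20 arrays grouped by time, ethanol (red) above carbohydrate (blue). The Sod2 peaks of 6h lie about 2.5 kb upstream on 2 of 4 ethanol and 4 of 4 carbohydrate arrays, and the Gstm1 peaks that cover the start are those of 1h and ethanol 0h replicate 2.

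Sod2 encodes the manganese superoxide dismutase of mitochondria, which turns superoxide into hydrogen peroxide and is induced by tumour necrosis factor through NF-kB. Its window lay at chr1:41872429-41872844, 2517 to 2102 bp upstream of the listed start, with 4 probes. In ethanol livers the signal was 0.16, 0.20 and 0.17 at 0h, 0.04, 0.30 and 0.41 at 1h, and 0.46, 0.56, 0.76 and 0.63 at 6h. In carbohydrate livers it was −0.06, −0.24 and 0.36 at 0h, 0.33, 0.50 and 0.10 at 1h, and 0.91, 0.83, 0.94 and 1.07 at 6h. The 6h arrays were above all arrays of 0h and 1h in each diet, and the ethanol 6h arrays all lay below the carbohydrate 6h arrays. Over all promoters, 6h lay wholly above 0h at 9.09% in the ethanol and 26% in the carbohydrate diet. It lay wholly above 1h at 12.5% and 24.1%.

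The Sod2 signal averaged 0.60 ± 0.13 at 6h (SD, n = 4) and 0.18 ± 0.03 at 0h (n = 3) in ethanol livers, a difference of 0.42 ± 0.15 (SE) that missed the threshold (limma adjusted p = 0.111). In carbohydrate livers it averaged 0.94 ± 0.10 at 6h and 0.02 ± 0.31 at 0h, a rise of 0.91 ± 0.15 (limma adjusted p = 0.0008), rank 20 of 14540 from the highest. With run as a term that rise was 0.74 (limma adjusted p = 0.248). Against 1h, carbohydrate 6h was 0.63 higher (limma adjusted p = 0.00398), and 0.65 higher inside run 3 (limma adjusted p = 0.00304). In the ethanol diet this difference was 0.35 (limma adjusted p = 0.0792).

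At 6h the ethanol minus carbohydrate difference at Sod2 was −0.33 ± 0.14 (95% interval −0.62 to −0.05; limma adjusted p = 0.429), although the groups of 4 did not overlap, as was so with lower ethanol values at 9.21% of all promoters. No promoter of the 14540 (0%) passed for ethanol against carbohydrate at 0h, 1h or 6h in this limma fit, with 1106, 1189 and 1590 at an unadjusted p under 0.05. Inside run 3 it was −0.34 (limma adjusted p = 0.108), and 1048 promoters (7.21%) were called there, 1036 of them lower in ethanol. With arrays weighted by their quality, an alternative that called 2751 promoters (18.9%) at 6h, it was −0.39 (limma adjusted p = 0.00892). The estimation of those weights stopped before it converged. The test of whether the diets differed in the change between 0h and 6h gave −0.49 ± 0.21 (limma adjusted p = 0.332), and −0.65 with weighted arrays (limma adjusted p = 0.0102; 15.5% of promoters called).

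The Sod2 rise at 6h lay upstream of the start. In 500 bp bins those from 3000 to 2001 bp upstream rose at 6h against 0h in the carbohydrate diet, by 0.60 and 0.96, 2 of the 7 bins with enough probes, where 3.01% of all bins rose. Within 500 bp of the start the 6h minus 0h difference was −0.07 in the carbohydrate diet (limma adjusted p = 0.647). The authors' peaks of 6h were centred 2473 to 2660 bp upstream on 2 of 4 ethanol and 4 of 4 carbohydrate arrays, with a further one 3438 bp upstream on carbohydrate replicate 4. Of all listed genes, 11.6% had a peak on all 4 carbohydrate 6h arrays. At 1h peaks were listed 536 and 574 bp downstream on 2 ethanol arrays and 730 bp downstream on 1 carbohydrate array, and 1 carbohydrate array had one 3438 bp upstream. The bin 500 to 999 bp after the start had its highest mean at 1h. In ethanol livers it averaged 0.14 at 0h, 0.52 at 1h and 0.21 at 6h, and in carbohydrate livers 0.19, 0.40 and 0.36. It did not pass for 1h against 0h in either diet. The only 0h array with a Sod2 peak was ethanol 0h replicate 2, 942 bp downstream. The searched promoter sequence does not reach the upstream site, and no sequence of that site was used here.

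**Figure D5:**
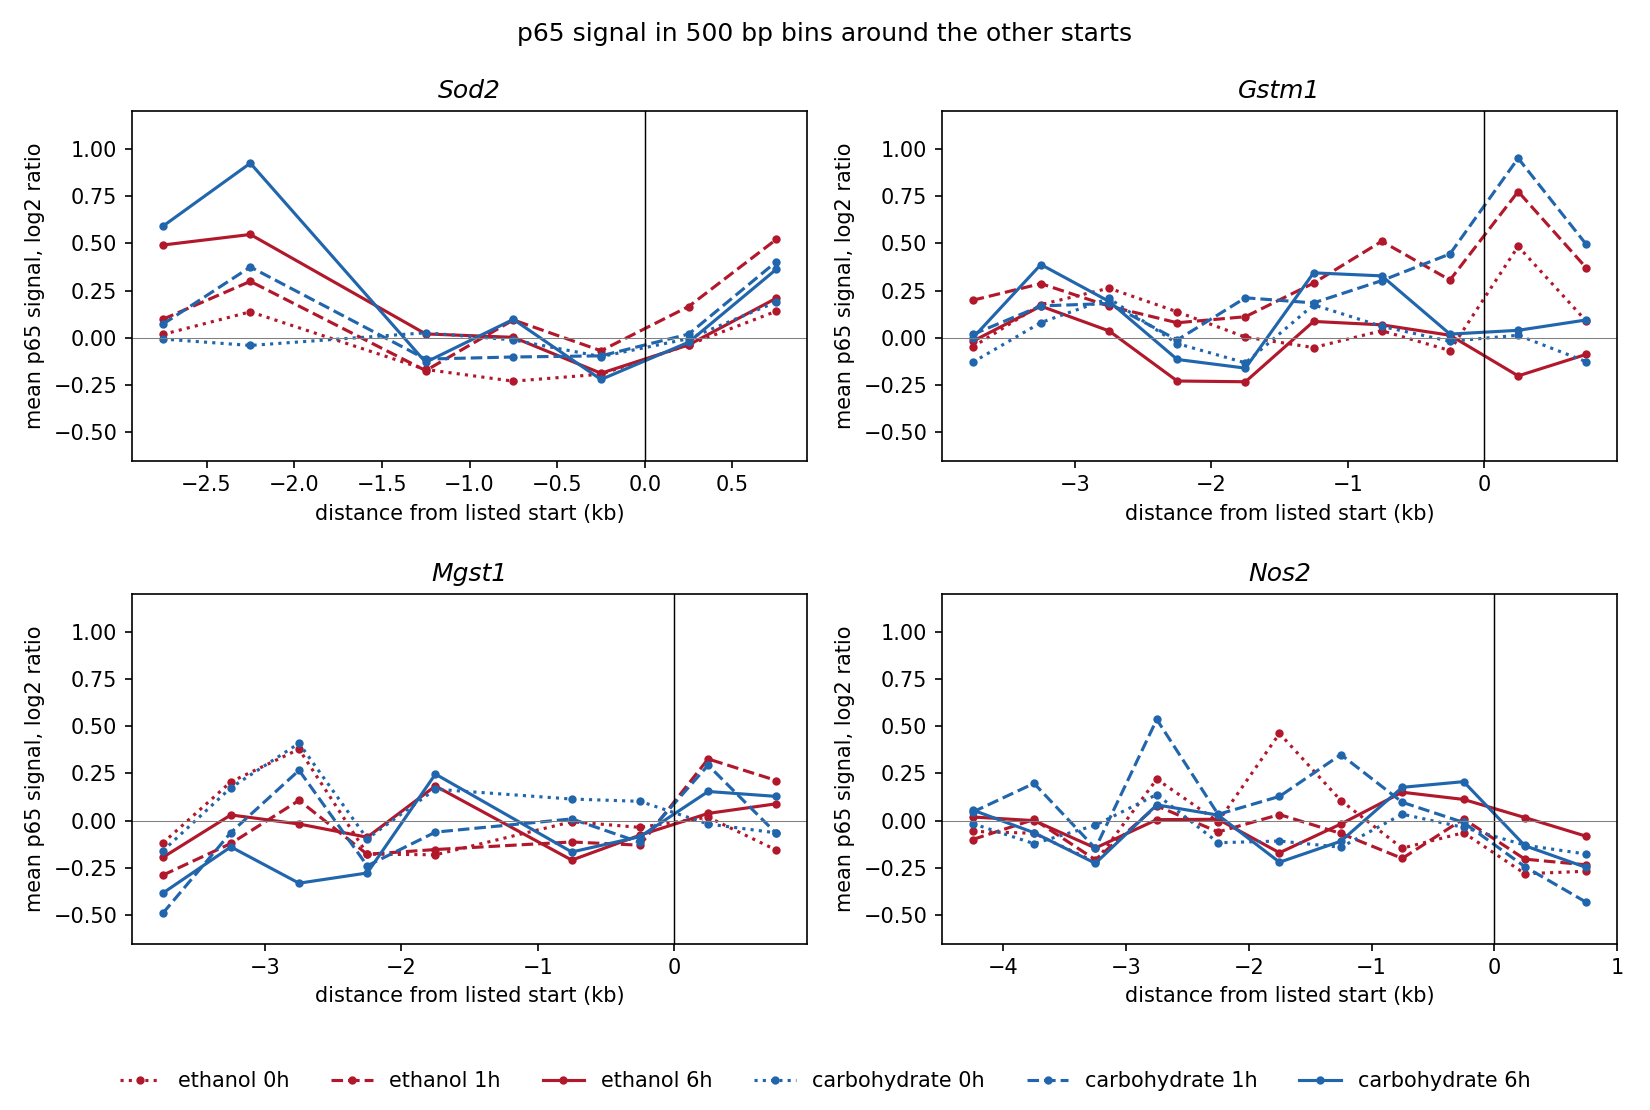
Mean p65 signal (log2, vertical axis) of each group in 500 bp bins, by distance from the listed start (kb, horizontal axis; negative is upstream), for Sod2, Gstm1, Mgst1 and Nos2; bins with under 3 probes have no point. Sod2 has its highest point, 0.92, more than 2 kb upstream at carbohydrate 6h, and Gstm1 has 0.77 (ethanol) and 0.95 (carbohydrate) just after the start at 1h.

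Gstm1 is a cytosolic mu-class glutathione transferase, which joins glutathione to electrophiles such as the products of lipid peroxidation. Its window, chr2:203580377-203580797, began 24 bp and ended 444 bp after the listed start. In ethanol livers the signal was 0.32, 1.01 and 0.12 at 0h, 1.17, 0.77 and 0.38 at 1h, and −0.34, −0.34, −0.13 and 0.01 at 6h. In carbohydrate livers it was −0.28, 0.24 and 0.09 at 0h, 0.89, 1.35 and 0.61 at 1h, and −0.07, 0.17, −0.00 and 0.06 at 6h. In both diets the 1h arrays were above all 6h arrays, as at 19.4% (ethanol) and 12% (carbohydrate) of all promoters. They were above all 0h arrays in carbohydrate livers, as at 21.4% of promoters, while in ethanol livers ethanol 0h replicate 2 overlapped them.

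At 1h Gstm1 was 0.29 ± 0.20 (SE) higher than at 0h in the ethanol diet (limma adjusted p = 0.479). Carbohydrate livers rose by 0.94 ± 0.20 (limma adjusted p = 0.00707), rank 31 from the highest. That rise was 0.74 without carbohydrate 1h replicate 2 (limma adjusted p = 0.0566) and 0.31 with run as a term (limma adjusted p = 0.98). By 6h the signal fell by 0.97 ± 0.19 from its 1h level in the ethanol diet (limma adjusted p = 0.000937) and by 0.91 ± 0.19 in the carbohydrate diet (limma adjusted p = 0.00144). Inside run 3 these falls were 0.78 (limma adjusted p = 6.62e-05) and 0.91 (limma adjusted p = 7.88e-06).

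Against 0h, ethanol 6h had a Gstm1 difference of −0.69 ± 0.19 (limma adjusted p = 0.0615), of −0.42 without ethanol 0h replicate 2 (limma adjusted p = 0.392), and of −0.87 without ethanol 0h replicate 3 (limma adjusted p = 0.0127). The difference with carbohydrate was 0.03 ± 0.19 (limma adjusted p = 0.938). Ethanol exceeded carbohydrate at 0h by 0.47 ± 0.20 (95% interval 0.06 to 0.88; limma adjusted p = 0.637), and by 0.20 without ethanol 0h replicate 2. Peaks at Gstm1 were listed on 15 of 20 arrays, the most of these genes and against a median of 6 over all listed genes. All 6 arrays of 1h had one that covered the start, with a false discovery rate by the authors of at most 0.0143. At 0h only the peak of ethanol 0h replicate 2 covered it. The other 0h peaks were centred 2116 to 3320 bp upstream, with rates from 0.0212 to 0.191. The 6h peaks were centred 938 to 3180 bp upstream, on 1 of 4 ethanol and 4 of 4 carbohydrate arrays. Their rates ran from 0.0448 to 0.1285. The 6h bin means for carbohydrate livers were 0.33 and 0.34 between 1500 and 501 bp upstream and 0.04 in the first 500 bp after the start. Gstm genes lie in a cluster of related copies, and whether probes respond to several of them was not tested.

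Mgst1 is a glutathione transferase of the endoplasmic reticulum and outer mitochondrial membranes that also reduces lipid peroxides. Its window, chr4:175245519-175245972, lay 3134 to 2681 bp upstream of the listed start. In ethanol livers the signal was 0.49, 0.83 and 0.33 at 0h, 0.84, −0.33 and −0.09 at 1h, and 0.26, 0.01, −0.30 and −0.01 at 6h. In carbohydrate livers it was 0.55, 0.74 and 0.20 at 0h, 0.67, 0.29 and 0.15 at 1h, and −0.54, −0.34, −0.32 and −0.21 at 6h. The carbohydrate 6h arrays were below every other carbohydrate array, and the ethanol 1h arrays were widely spread, with the high one on run 2. Over all promoters, carbohydrate 6h lay wholly below 0h at 5.8% and wholly below 1h at 12%.

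Mgst1 fell in the carbohydrate diet by 0.85 ± 0.19 (SE) at 6h against 0h (limma adjusted p = 0.00323), rank 3 from the lowest of 14540. It fell by 0.72 ± 0.19 at 6h against 1h (limma adjusted p = 0.00674), and by 0.51 inside run 3 (limma adjusted p = 0.000423). Without carbohydrate 0h replicate 2 the first fall was 0.72 (limma adjusted p = 0.0529), and without carbohydrate 1h replicate 1 the second was 0.57 (limma adjusted p = 0.0593). With run as a term the first was 0.46 (limma adjusted p = 0.416). Over the whole tiled region the differences were −0.14 and −0.04 (limma adjusted p = 0.112 and 0.591), and within 500 bp of the start −0.01 and −0.05 (limma adjusted p = 0.964 and 0.741). In the ethanol diet the differences were −0.56 ± 0.19 at 6h against 0h (limma adjusted p = 0.0967) and −0.15 ± 0.19 at 6h against 1h (limma adjusted p = 0.567). The first was −0.68 and passed without ethanol 0h replicate 3 (limma adjusted p = 0.0404). At 1h against 0h the ethanol difference was −0.41 ± 0.20 (limma adjusted p = 0.305), and −0.76 without ethanol 1h replicate 1 (limma adjusted p = 0.00913).

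At 6h the Mgst1 signal was 0.34 ± 0.17 higher in ethanol than in carbohydrate livers (95% interval −0.01 to 0.69; limma adjusted p = 0.468). This was the seventh highest diet difference of 14540, at a time when the median promoter was −0.11. The test of the diets' difference in the change from 1h to 6h gave 0.57 ± 0.27 (limma adjusted p = 0.331). It was 0.92 without ethanol 1h replicate 1, the high array of its group (limma adjusted p = 0.0228). Inside run 3 it was 0.71 (limma adjusted p = 0.0123), with 11.1% of promoters called there. Of 9 bins around the start, the one 3000 to 2501 bp upstream fell at 6h in the carbohydrate diet, by 0.74 against 0h, where 2.46% of all bins fell, and by 0.60 against 1h. The other 8 did not pass in either comparison. Its mean was −0.33 at carbohydrate 6h, against 0.41 at carbohydrate 0h. Peaks at this upstream site were listed on 2 of 3 ethanol 0h, 1 of 3 carbohydrate 0h, 1 of 3 ethanol 1h and 1 of 3 carbohydrate 1h arrays and on no 6h array. Another 4 arrays had a peak 590 to 685 bp after the start.

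Nos2 encodes the inducible nitric oxide synthase, which produces large amounts of nitric oxide in macrophages and in cytokine-treated hepatocytes. Its window, chr10:65034052-65034437, lay 2831 to 2446 bp upstream of the listed start. In ethanol livers the signal was 0.38, 0.37 and −0.08 at 0h, 0.45, 0.25 and −0.14 at 1h, and −0.06, −0.13, 0.08 and 0.05 at 6h. In carbohydrate livers it was 0.03, 0.04 and 0.14 at 0h, 0.79, 0.55 and 0.34 at 1h, and 0.14, 0.15, −0.08 and 0.22 at 6h. The carbohydrate 1h arrays were above all other carbohydrate arrays, and the ethanol arrays overlapped at all times. Over all promoters, carbohydrate 1h lay wholly above 0h at 21.4%, and 6h wholly below 1h at 12%.

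In the ethanol diet the Nos2 difference at 1h against 0h was −0.03 ± 0.14 (limma adjusted p = 0.928). With carbohydrate it rose by 0.50 ± 0.14 (SE; limma adjusted p = 0.027), and at 6h against 1h it fell by 0.46 ± 0.13 (limma adjusted p = 0.0144). The rise missed the threshold without any 1 of 4 arrays, carbohydrate 0h replicates 1 and 2 and carbohydrate 1h replicates 1 and 2, with limma adjusted p from 0.0733 to 0.12, and with run as a term, at 0.52 (limma adjusted p = 0.816). The fall missed it without carbohydrate 1h replicate 1 (limma adjusted p = 0.11) or carbohydrate 6h replicate 3 (0.0539), and was 0.35 inside run 3 (limma adjusted p = 0.0214) and 0.34 with run as a term (limma adjusted p = 0.0516). Averaged over the whole tiled region the rise was 0.12 and the fall 0.095, and neither passed (limma adjusted p = 0.088 and 0.142). With arrays scaled alike the rise was 0.38 (limma adjusted p = 0.0553). Within 500 bp of the start the signs were opposite, at −0.045 and 0.16, and neither passed.

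At 1h the ethanol minus carbohydrate difference at Nos2 was −0.38 ± 0.14 (95% interval −0.67 to −0.08; limma adjusted p = 0.486). It was negative on all 3 pairs of 1h arrays that shared a slide, by −0.34, −0.30 and −0.48. The test of the diets' difference in the change from 0h to 1h gave −0.53 ± 0.20 (limma adjusted p = 0.455). For none of the 3 such tests, over any pair of times, did a promoter pass (0% of 14540; 1371, 1954 and 2044 at an unadjusted p under 0.05). Peaks at Nos2 were the fewest of these genes, on 3 of 20 arrays: ethanol 1h replicate 1 and carbohydrate 1h replicates 1 and 2. They were centred 1374 to 1624 bp upstream, nearer the start than the window. Of 11 bins around Nos2, 1 rose at 1h against 0h in the carbohydrate diet, where 4.12% of all bins rose: the one 1500 to 1001 bp upstream, by 0.49 (limma adjusted p = 0.0241). The bin 2000 to 1501 bp upstream, which holds the centres of 2 of the 3 peaks, did not pass in either diet. It averaged 0.03 at 1h and 0.46 at 0h in ethanol livers, and 0.13 at 1h and −0.11 at 0h in carbohydrate livers.

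By the array identifiers 4 animals gave both a 0h array and a later one, on different runs in 3 of them. The metallothionein window was 0.77 at 1h and 0.39 at 0h in an ethanol animal, and 0.80 at 1h and 0.08 at 0h in a carbohydrate animal. It was 0.25 at 6h and −0.01 at 0h in another ethanol animal, and 0.72 at 6h and 0.19 at 0h in another carbohydrate animal, so the later array was the higher in all 4. Gstm1 was higher at 1h than at 0h by 0.16 in the ethanol and 0.65 in the carbohydrate animal. Its 6h minus 0h differences in the other animals were −0.46 (ethanol) and 0.09 (carbohydrate). Sod2 was higher at 6h than at 0h by 0.29 in the ethanol and 0.47 in the carbohydrate animal. Its 1h minus 0h differences were −0.17 (ethanol) and 0.57 (carbohydrate). For Mgst1 the 6h minus 0h differences were −0.07 (ethanol) and −0.54 (carbohydrate), and those at 1h were 0.01 and −0.07. For Nos2 the 1h minus 0h differences were 0.08 (ethanol) and 0.76 (carbohydrate), and those at 6h were 0.01 and 0.01.

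The 5 promoters followed different courses over time. Across the 20 arrays, which share run and slide effects, the signal of Gstm1 correlated with that of Nos2 (Pearson r = 0.79) and of the metallothionein region (0.69), while Sod2 and Mgst1 ran opposite ways (−0.80). Sod2 and the metallothionein region had r = 0.002. These values are descriptive, over 20 arrays of 6 groups. The named promoters whose signal followed each member most closely were, by the same measure, Ptger2 (0.96), Or4c110 (0.95) and Mcpt10 (0.95) for Sod2, and Slc25a29 (0.94), Rpl10 (0.94) and Plcg2 (0.92) for the metallothionein region. For Gstm1 they were Slco2b1 (0.94), Crp (0.93) and Cldn3 (0.93), and for Mgst1 RGD1305938 (0.94), Ulk1 (0.92) and Antxr1 (0.91). Nos2 was followed by Ret (0.86), Ccl17 (0.85) and Slc16a5 (0.84). Rpl10 averaged 1.04 and 0.79 at 1h in ethanol and carbohydrate livers, and Crp, a gene of the acute phase response, 1.02 and 1.33.

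In relation to all promoters, the group mean of the metallothionein window at 0h stood at or above 21.1% of promoters in ethanol and 36.0% in carbohydrate livers, and at 1h at or above 100% in both, to 3 digits. Sod2 at 6h stood at or above 99.2% of promoters in ethanol and 99.8% in carbohydrate livers, and Gstm1 at 1h at or above 97.2% and 99.8%. Mgst1 stood at or above 97.2% of promoters in ethanol and 97.0% in carbohydrate livers at 0h, and at or above 9.41% and 0.179% at 6h.

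Wider lists of genes of the same pathways, chosen by function with the members left out, were counted beside the members. Of 41 promoters of antioxidant enzymes and glutathione synthesis, 15 fell and none rose at 6h against 1h in the ethanol diet, with a median of −0.24, beside −0.08 over all promoters, of which 16.1% fell. The largest falls were at Txn2, the mitochondrial thioredoxin, by 0.99 (limma adjusted p = 0.00179), and Gpx1, the main glutathione peroxidase of liver, by 0.96 (limma adjusted p = 0.000742). Of the 41 in the carbohydrate diet 3 rose and 4 fell between these times, beside 17.1% and 6.91% of all promoters, with Gpx8 up by 0.48 and Ucp2 down by 0.54. At 1h against 0h none was called in the ethanol diet, and in the carbohydrate diet 5 rose, beside 8.64% of all promoters, led by Ucp2 by 0.69 and Txnip, an inhibitor of thioredoxin, by 0.69. At 6h against 0h, Sesn3 fell by 0.65 in the ethanol diet, where 0.626% of all promoters fell. With carbohydrate 5 rose and Glrx2, the mitochondrial glutaredoxin, fell by 0.53, beside 18.6% and 2.02% of all promoters, with Gpx3 and Gpx2 highest at 0.53 each.

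Of 9 promoters of the Nrf2 pathway, 5 fell in ethanol and 2 in carbohydrate livers at 6h against 1h, when 16.1% and 6.91% of all promoters fell. The list medians were −0.50 and −0.08, beside −0.08 and 0.07 over all promoters. Both counts held Nfe2l1, a relative of Nrf2, which fell by 0.84 and 0.77, and Keap1, which holds Nrf2 in check, which fell by 0.75 and 0.56. Nfe2l2, the gene of Nrf2, rose by 0.36 at 6h against 0h in the carbohydrate diet, where 18.6% of all promoters rose. It was the only 1 of the 9 called there, with a list median of 0.01 beside 0.15 over all promoters. At 1h against 0h in that diet only Osgin1, a target of Nrf2, rose, by 0.47, where 8.64% of all promoters rose.

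Of 22 other promoters of glutathione transferases and their family, 1 fell at 6h against 1h in the ethanol diet (Gstt4, by 0.39), while 4 rose and 2 fell in the carbohydrate diet; over all promoters 16.1% fell in the first case, and 17.1% rose and 6.91% fell in the second. The medians were −0.14 and −0.05. There Gsta1 rose by 0.41, and Alox5ap, a membrane relative of Mgst1, and Gstp1 fell by 0.54 and 0.50. Gstm2, a mu-class relative of Gstm1, rose at 1h by 0.60 and was still 0.56 higher at 6h than at 0h in the carbohydrate diet, where Gstm1 differed from 0h by 0.03. In that diet 3 of the 22 rose at 1h and 5 at 6h against 0h, beside 8.64% and 18.6% of all promoters, and none was called in the ethanol diet.

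Of 25 promoters of metal binding and transport, 8 fell and 1 rose at 6h against 1h in the ethanol diet, when 16.1% of all promoters fell and 7.73% rose. The median was −0.21, beside −0.08 over all promoters. Fth1 and Ftl1, the ferritin chains that store iron, fell by 0.94 and 0.76 (limma adjusted p = 0.000286 and 0.00277), and Atp7a, a copper pump, rose by 0.41. The carbohydrate diet had 2 that rose and 3 that fell, beside 17.1% and 6.91% of all promoters, with Slc39a14, a zinc and iron importer, down by 0.57. At 1h against 0h, none was called in the ethanol diet. In the carbohydrate diet Ftl1 and Tf, the iron carrier of plasma, rose by 0.79 and 0.58, and Cp, a copper oxidase, fell by 0.49, where 8.64% of all promoters rose and 2.46% fell.

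Of 25 promoters of nitric oxide and superoxide production, 8 fell and 1 rose in the ethanol diet at 6h against 1h, beside 16.1% and 7.73% of all promoters, with a median of −0.21. Slc7a2, an arginine transporter, and Ass1, which remakes arginine, fell by 0.95 and 0.94, and Xdh rose by 0.38. Of the 25 in the carbohydrate diet 3 fell and 2 rose, beside 6.91% and 17.1% of all promoters. Those that fell included Slc7a2 by 0.78 and Arg1, which competes for arginine, by 0.73, and Ddah2 and Cybb, the catalytic chain of the phagocyte oxidase, rose by 0.51 and 0.50. At 1h against 0h, 3 rose in the carbohydrate diet, beside 8.64% of all promoters, with Ass1 at 0.58 and Spr at 0.54, and none in the ethanol diet. At 6h against 0h, 6 rose in the carbohydrate diet, beside 18.6% of all promoters, with Noxa1 at 0.43, and Slc7a1 fell by 0.78 in the ethanol diet. For these 5 lists no promoter passed for ethanol against carbohydrate at any time.

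Promoters of cell type markers were counted beside these, as binding and not as cell numbers. At 6h against 1h in the ethanol diet, 4 of 7 hepatocyte promoters fell, with Alb down by 0.81, none of 7 Kupffer cell and macrophage promoters was called, 2 of 10 neutrophil and lymphocyte promoters rose and 1 fell, and 1 of 7 of stellate, sinusoidal and bile duct cells rose; 16.1% of all promoters fell and 7.73% rose. In the carbohydrate diet, 1 of the 7 hepatocyte promoters rose and 2 fell, 1 macrophage promoter rose and 1 fell, and 4 of the 10 neutrophil and lymphocyte and 2 of the 7 stellate, sinusoidal and bile duct promoters rose; 17.1% of all promoters rose and 6.91% fell. At 1h against 0h in that diet 3 of the 7 hepatocyte promoters rose, with Alb up by 0.88 and a median of 0.53, beside 8.64% of all promoters and a median of 0.07. The same comparison had 2 of 7 macrophage, none of 10 neutrophil and lymphocyte and 2 of 7 stellate, sinusoidal and bile duct promoters rising. At 6h against 0h, when 18.6% of all promoters rose, 1 hepatocyte, 4 macrophage, 3 neutrophil and lymphocyte and 3 stellate, sinusoidal and bile duct promoters rose. The ethanol diet had 1 call in these comparisons with 0h, a fall among the neutrophil and lymphocyte promoters at 1h. Whether cell makeup has a part in the members' values was not tested.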

How the data were processed

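Binding of NF-kB p65 was measured by chromatin immunoprecipitation on NimbleGen promoter tiling arrays, 1 array per sample, with Cy5 for precipitated DNA and Cy3 for input per the channel labels; elsewhere the labels put IgG control DNA in that dye, so what the reference was stayed unsettled. The value table the authors deposited holds a log ratio for each of 713735 probes, read as log2, the usual NimbleGen unit; how it was scaled, centred and directed is unstated. The medians of its columns lay between −0.0249 and 0.0170. From 99.9% to 100% of the authors' peaks lay at negative deposited values, so all values were multiplied by −1, a likely direction; with the other sign each probe's differences would mirror and other windows would be chosen. The peak lists deposited by the authors give each peak's position, score, false discovery rate (FDR, at most 0.19961) and nearest listed start, per the file headers. How peaks were called, and on which genome build, is not given in the sources used here.

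The median of each array was subtracted, without further normalization. Neighbouring probes at most 1000 bp apart formed a region. Of 14723 regions 14540 had a window of 500 bp with at least 4 probes, and 13270 of these had a gene name, through 13678 of 14678 accessions matched to RefSeq (GRCr8, for names and promoter sequences only). Groups and replicate numbers came from sample titles, and run, slide and animal from array identifiers. These gave 16 animals, 4 of them with 2 arrays. Tests used limma (version 3.58.1, R 4.3.3; two-sided, eBayes with trend, Benjamini-Hochberg over all promoters), and the fit was tested on simulated data. Python 3.11.15 with numpy 2.4.6, pandas 2.3.3 and matplotlib 3.10.9 did the rest.

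Named genes were every member in each comparison, in each of 5 pathway lists up to 2 rises and 2 falls past the threshold per comparison, and the 3 promoters with 1 gene name most correlated with each member; Alb, outside this rule, was chosen after its values were seen. The members and all lists were chosen with earlier results of these data known. One gene the rule names is not reported here. Replicate numbers were not used as pairs. Deviations of same-numbered arrays from the group means correlated at a mean r of 0.067 (range −0.224 to 0.504, 46 pairs). Pairs with other numbers had a mean r of −0.026. Numbers do not mark animals, but at 1h the same-numbered arrays of both diets shared a slide. Arrays on the same slide had a mean r of 0.172 (11 pairs), and the main fit did not pair them. Alternatives changed the scaling, the window, the arrays in the fit, the run, slide, animal and replicate terms and the array weights, and left out each array in turn. The 500 bp bins and the Mt2A start were added after seeing the data.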

Additional observations from a re-analysis of the deposited data

Results flagged for a closer look

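The Gstm1 signal within 500 bp of the start on carbohydrate 6h replicate 2 was 0.129, apart from the other 3 arrays of its group, which lay between −0.005 and −0.002. It was the only value so far from its group among 22 groups of 4 arrays examined, where chance alone gives about 1 in 20. In the promoter window of Gstm1 the same array was also the highest of its group, at 0.17, and not apart from the others by the same measure. Within 500 bp of the start that array was the highest of its group at Sod2, Mt1, Mt2A and Mgst1 as well, but not at Nos2. Among the windows it was highest also at the metallothionein region, at 0.72, and lowest at Sod2, at 0.83.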

How the results depend on the processing

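Of 13 member differences past the threshold, 141 values under other settings were computed, besides leaving out single arrays. In 121 the direction and the call were kept, in 16 the direction was kept and the call lost, and in 4 the sign changed. All 4 used the probes within 500 bp of the start, for genes whose window lies over 2 kb upstream: Nos2 gave −0.045 for 1h against 0h and 0.163 for 6h against 1h, and Sod2 gave −0.07 for 6h against 0h and −0.084 for 6h against 1h, all in the carbohydrate diet. Leaving out single arrays kept 73 of 87 calls and lost 14. For the 47 differences not past the threshold, 914 other values changed sign 103 times with neither value called, and 24 passed. The number of member promoters called moved by over 1.5 times as follows. With run as a term it was 0 for 1h against 0h in both diets, where ethanol 0h replicate 2 alone linked the times. For 6h against 0h it was 1 in ethanol (Gstm1) and 0 in carbohydrate, through the same link. With array weights, whose estimation stopped before it converged, it was 2 for ethanol against carbohydrate at 6h, 2 for 1h against 0h and 3 for 6h against 0h in ethanol, and 3 and 1 for the diets' difference in the changes from 0h and from 1h to 6h. Inside run 3 the last was 1 (Mgst1). For 1h against 0h in ethanol it was 0 with only the arrays compared. For 6h against 0h in ethanol it was 1 after equalizing the arrays' spread, 2 with quantile normalization and 1 with the replicate number as a block (Gstm1), a block that changed no other count of calls. In carbohydrate the mean of the tiled region called 1 for 6h against 0h and 3 for 6h against 1h, and the probes within 500 bp of the start called 0 and 2. Without single arrays the count ran from 0 to 2 for 1h against 0h and for 6h against 0h in ethanol, 1 to 3 for 1h against 0h, 1 to 2 for 6h against 0h and 3 to 5 for 6h against 1h in carbohydrate, and 0 to 1 for the diets' difference in the change from 1h to 6h. It stayed at 2 for 6h against 1h in ethanol. Of 1130 counts over the pathway lists, 891 stayed within 1.5 times and 239 did not. The cause of these changes was not tested. Groups of 3 or 4 arrays, 1 run for nearly all of 0h, and windows of few probes limit what could be seen. Where a difference did not pass, a change as large as its interval allows may have been missed.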
